A study of Sus scrofa with 6 samples.

Results

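Cytosolic ribosomal proteins are the protein parts of the ribosome that translates nuclear mRNAs. They were followed here as the protein-coding genes whose file name is RPL or RPS with a number, with an optional A, X or L and further number, or is RPSA, RPLP0, RPLP1 or RPLP2. That rule found 52 genes, 29 of the large and 23 of the small subunit, among 28965 genes listed, of which 20288 are protein-coding. RNA was read from the cervical spinal cord of 3 pigs with a deletion of UBE3A inherited from the mother and 3 wild-type pigs, with 1 library each. UBE3A is a ubiquitin ligase made in neurons mainly from the maternal copy of its gene, and the study asks what its loss does to gene expression. The labels name a separate animal for each library. All 6 animals were male and 140 days old, the titles also carry the word brain, and the labels give neither the extent of the deletion nor the strain or litter.

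A ribosome holds a large subunit, which joins amino acids, and a small subunit, which reads the mRNA, and each ribosome needs nearly every ribosomal protein once. The genes are therefore transcribed and their products assembled in near balance, and surplus proteins are degraded. Their mRNAs are short, abundant and begin with a run of pyrimidines, through which growth signals carried by the kinase mTOR and the binding protein LARP1 set how strongly they are translated. Protein and ribosome number were not measured, only polyadenylated RNA. In bulk tissue, fewer cells of a type and less RNA per cell cannot be told apart.

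Libraries held between 17181003 and 22492366 exon reads. UBE3A stood at 21.4, 27.1 and 21.4 CPM (reads scaled to a common library total, with TMM factors) in the deletion libraries and at 57.0, 65.5 and 60.6 CPM in the wild-type libraries, so every library carried the level of its label. Its log2 fold change, deletion over wild type, was -1.39 (SE 0.13; adjusted p 0.0253 by edgeR's quasi-likelihood test, Benjamini-Hochberg). Over 14566 genes tested, 149 (1.02%) passed an adjusted p of 0.05, 26 higher and 123 (0.844%) lower. Wild-type replicate 3 stood apart from the other 2 wild-type libraries. Mitochondrial mRNAs took 5.88% of its reads, against 12.4% and 12.1% in wild-type replicates 1 and 2 and between 9.01% and 10.4% in the deletion libraries, and its summed neuron markers were the lowest of the 6. The subunit medians, sums, calls and overlap counts, and the medians of the other lists, are therefore also given without it, while the levels of single genes are given for all 6 libraries.

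Of the 52 genes, 51 passed the filter on low counts. RPL10L, a copy of RPL10 known from testis in people and mice, had 0 reads in every library, which allows up to between 0.130 and 0.176 CPM per library (3 reads, counting error only). Of the 51 tested, 46 were among the most abundant 20% of genes tested by CPM, and the other 5 are the paralogs described further on. Per length, the median member stood at a mean of 468 TPM (transcript share after division by length, as the authors deposited it), against 11.95 TPM for all genes tested. Near the top of the range were RPS12 of the small subunit, at 1236 TPM, and RPLP2 of the large subunit, at 1217 TPM, and RPL23 was the next in the large subunit at 920 TPM. The low end was held by RPL3L, at 1.09 TPM, and RPS27L, at 13.7 TPM. RPS15A, the next lowest of the small subunit at 139 TPM, had a summed exon length of 3410 bases, computed as reads over RPKM. These computed lengths ran from 444 bases for RPS28 to 8871 bases for RPL4, the second far beyond its coding region. A member's TPM thus also depends on how much untranslated sequence the annotation gives it. The computation takes the library's summed exon reads as the total behind RPKM, which no source used here states. The computed lengths are not whole numbers, so all may be off by a common factor, which leaves their order unchanged.

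Genes of both subunits stood lower in the deletion group on average, and no single member passed the edgeR test described here. In the large subunit, 25 of 28 members had a negative log2 fold change, with a median of -0.28 and quartiles of -0.33 and -0.24. In the small subunit all 23 were negative, with a median of -0.32 and quartiles of -0.35 and -0.30. Over all genes tested, 43.3% were negative and the median was 0.05. The edgeR quasi-likelihood test (Benjamini-Hochberg) called 0 of 28 large and 0 of 23 small subunit members, against 1.02% of all genes and 0.844% lower, and the members' adjusted p ran from 0.170 to 0.973. At an unadjusted p under 0.05 it took 5 members of each subunit, all lower, which is 10 of 51 against 20.2% of all genes at that level in either direction and 9.09% lower. DESeq2 called RPL10 and RPS16 lower (Benjamini-Hochberg adjusted p 0.0288 and 0.0490), against 9.5% of genes called in either direction and 5.48% lower, and limma voom with quality weights called 0 members against 3.01% of genes. In the authors' deposited table, 47 of the 51 members had a negative and 4 a positive fold change, and 0 had a false discovery rate under 0.05, against 7.2% of the genes with a rate there.

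**Figure D1:**
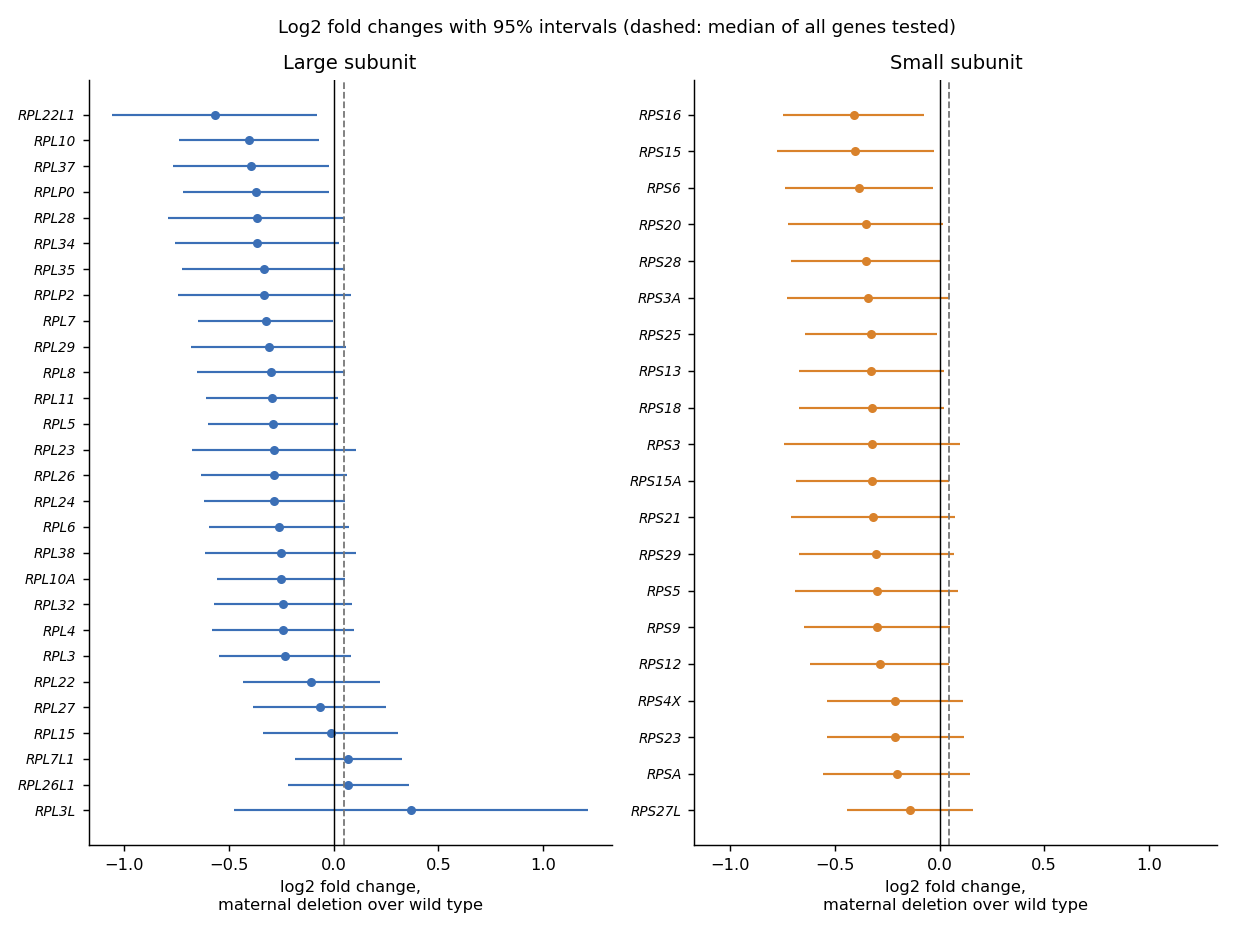
Log2 fold change (x axis, maternal deletion over wild type, n = 3 each) of 28 members of the large (left) and 20 of the small (right) subunit; points are edgeR estimates, bars their 95% intervals, and the dashed line is the median of all genes tested at 0.05. All 20 small subunit members shown and 25 of 28 large subunit members lie below 0, and the interval of RPL3L is the widest.

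In the small subunit, RPS16 had the lowest fold change and the smallest p. RPS16, whose tail reaches toward the tRNA in the ribosome, stood at 198, 181 and 171 CPM in the deletion libraries and at 269, 258 and 205 CPM in wild type. The groups did not overlap, although deletion replicate 1 came close to wild-type replicate 3. The deletion level was 75.2% of wild type, or -0.41 on the log2 scale (SE 0.14; edgeR quasi-likelihood, Benjamini-Hochberg adjusted p 0.170). RPS6, the small subunit protein that is phosphorylated downstream of mTOR, stood at 223, 218 and 204 CPM in the deletion libraries and at 304, 309 and 227 CPM in wild type. Here too the 3 deletion values lay just under wild-type replicate 3 and well under the other wild-type values, and the log2 fold change was -0.38 (SE 0.15).

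RPS15, a protein of the head of the small subunit, stood at 236, 208 and 189 CPM in the deletion libraries and at 317, 289 and 230 CPM in wild type, with a log2 fold change of -0.40 (SE 0.16). Deletion replicate 1 lay above wild-type replicate 3, so the groups overlapped. RPS25, known for its part in initiation at internal ribosome entry sites, stood at 203, 204 and 178 CPM in the deletion libraries and at 262, 260 and 213 CPM in wild type, without overlap, and its log2 fold change was -0.33 (SE 0.14). RPSA, the small subunit protein also known as the laminin receptor, was among the members closest to 0. It stood at 239, 215 and 193 CPM in the deletion libraries and at 268, 269 and 209 CPM in wild type, with overlap, and its log2 fold change was -0.20 (SE 0.15).

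RPS12, among the most abundant small subunit genes, stood at 326, 308 and 264 CPM in the deletion libraries and at 384, 386 and 324 CPM in wild type, a log2 fold change of -0.29 (SE 0.14). Deletion replicate 1 alone lay above wild-type replicate 3. RPS15A, at 128, 136 and 113 CPM in the deletion libraries and at 166, 178 and 127 CPM in wild type, overlapped through wild-type replicate 3 and had a log2 fold change of -0.32 (SE 0.16). The adjusted p was 0.328 for RPS12 and 0.313 for RPS15A (edgeR quasi-likelihood, Benjamini-Hochberg).

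In the large subunit, RPL10, which joins the subunit late in its maturation near the catalytic centre, had the smallest p. It stood at 375, 355 and 306 CPM in the deletion libraries and at 494, 467 and 411 CPM in wild type, and no deletion value reached a wild-type one. The deletion level was 75.5% of wild type, or -0.40 on the log2 scale (SE 0.14; edgeR quasi-likelihood, Benjamini-Hochberg adjusted p 0.172). RPL37, a small protein bound to the rRNA of the large subunit, stood at 244, 238 and 212 CPM in the deletion libraries and at 357, 305 and 250 CPM in wild type, without overlap. The log2 fold change was -0.39 (SE 0.16; edgeR quasi-likelihood, Benjamini-Hochberg adjusted p 0.222).

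The stalk of the large subunit, which recruits translation factors, is built on RPLP0 and carries the acidic proteins RPLP1 and RPLP2. RPLP0 stood at 367, 320 and 307 CPM in the deletion libraries and at 466, 451 and 367 CPM in wild type, a log2 fold change of -0.37 (SE 0.15). Deletion replicate 1 and wild-type replicate 3 were level, and the other values were apart. RPLP2 stood at 202, 199 and 171 CPM in the deletion libraries and at 269, 268 and 182 CPM in wild type, with overlap, a log2 fold change of -0.33 (SE 0.18). RPLP1 has no name in the files, and the row that a name table gives this symbol lies outside the 52. It stood at 497, 472 and 427 CPM in the deletion libraries and at 700, 580 and 477 CPM in wild type, with overlap through wild-type replicate 3, a log2 fold change of -0.33 (SE 0.17). All 3 stalk genes thus had values between -0.37 and -0.33.

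RPL23, the second most abundant of the large subunit per length, stood at 238, 258 and 233 CPM in the deletion libraries and at 318, 340 and 230 CPM in wild type. Wild-type replicate 3 was the lowest of its 6 values, and the log2 fold change was -0.28 (SE 0.17). RPL5 and RPL11, which bind the smallest ribosomal RNA and are also known to hold the p53 regulator MDM2, were chosen after their values were seen. RPL5 stood at 281, 269 and 252 CPM in the deletion libraries and at 349, 345 and 287 CPM in wild type, and RPL11 at 312, 294 and 280 CPM against 401, 366 and 321 CPM, with no overlap in either. Their log2 fold changes were -0.29 (SE 0.13) and -0.30 (SE 0.14).

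**Figure D2:**
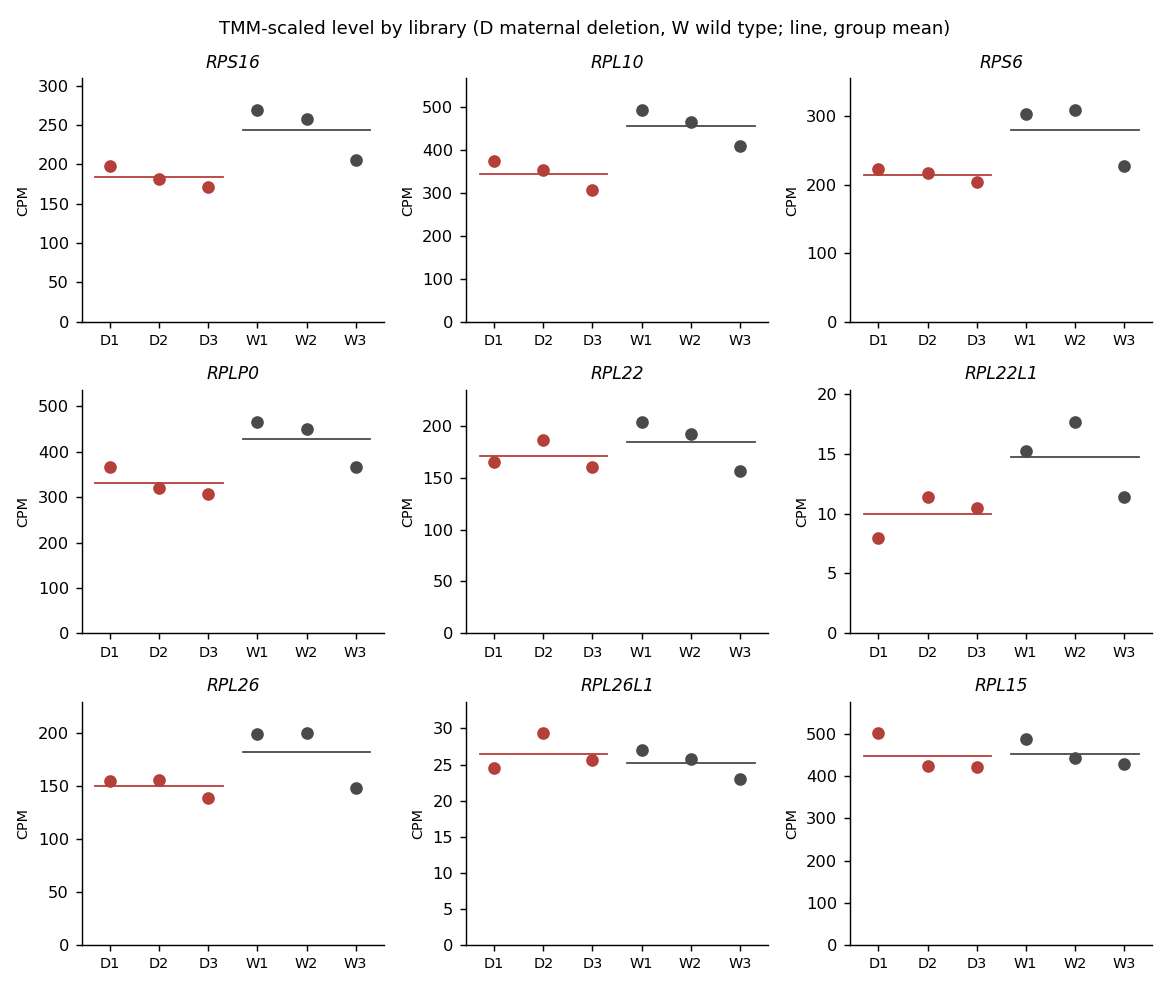
CPM (y axis, linear from 0) of 9 members in each library, deletion libraries D1 to D3 left of wild-type libraries W1 to W3; lines are group means, n = 3 each. RPS16, RPL10 and RPS6 show no overlap between groups, whereas RPL26L1 and RPL15 have group means close to each other.

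The 2 groups did not overlap in 12 of the 51 members, in each with the deletion group lower. The 3 deletion values all lay below the 3 wild-type values in 6 of 28 large subunit members (21.4%) and 6 of 23 small subunit members (26.1%), against 11.2% of all genes tested. The 6 large subunit genes were RPL5, RPL7, RPL10, RPL10A, RPL11 and RPL37, and those of the small subunit included RPS6, RPS9, RPS16 and RPS25. No member had all deletion values above all wild-type values, against 15.2% of all genes. Without wild-type replicate 3 the deletion values lay below the other wild-type values in 23 of 28 large and 22 of 23 small subunit members, against 18.4% of all genes. The members vary together across libraries, as described next, so these counts are not independent observations.

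Summed over members, the large subunit genes took 0.612%, 0.593% and 0.588% of all exon reads in the deletion libraries and 0.823%, 0.834% and 0.656% in wild type. The small subunit genes took 0.515%, 0.490% and 0.472% in the deletion libraries and 0.700%, 0.718% and 0.552% in wild type. Neither sum overlapped between groups, and the deletion mean was 77.6% of the wild-type mean for the large and 74.97% for the small subunit. Without wild-type replicate 3 the ratios of the means were 0.722 and 0.694. They were 0.803 and 0.775 without wild-type replicate 1, and 0.809 and 0.787 without wild-type replicate 2. With TMM-scaled totals the deletion mean was 82.8% of wild type for the large subunit, at 6188 ± 421 CPM against 7468 ± 969 CPM (SD, n = 3 each). For the small subunit it was 80.1%, at 5097 ± 468 CPM against 6360 ± 870 CPM. On that scale deletion replicate 1, at 6527 CPM for the large and 5496 CPM for the small subunit, lay above wild-type replicate 3, at 6403 and 5385 CPM, so the groups overlapped. The spread among the 3 wild-type sums was about as large as the difference of the means.

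The small subunit sum over the large subunit sum was 0.842, 0.825 and 0.802 in the deletion libraries and 0.851, 0.861 and 0.841 in wild type. Deletion replicate 1 lay between the wild-type values and the other 2 deletion libraries below them. The group means were 0.823 ± 0.0203 and 0.851 ± 0.0102 (SD, n = 3 each), so the deletion ratio was 96.7% of the wild-type ratio, or 0.961 of it without wild-type replicate 3. The 2 subunits therefore moved nearly in parallel from library to library, while the sums themselves differed by up to 1.54-fold.

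**Figure D3:**
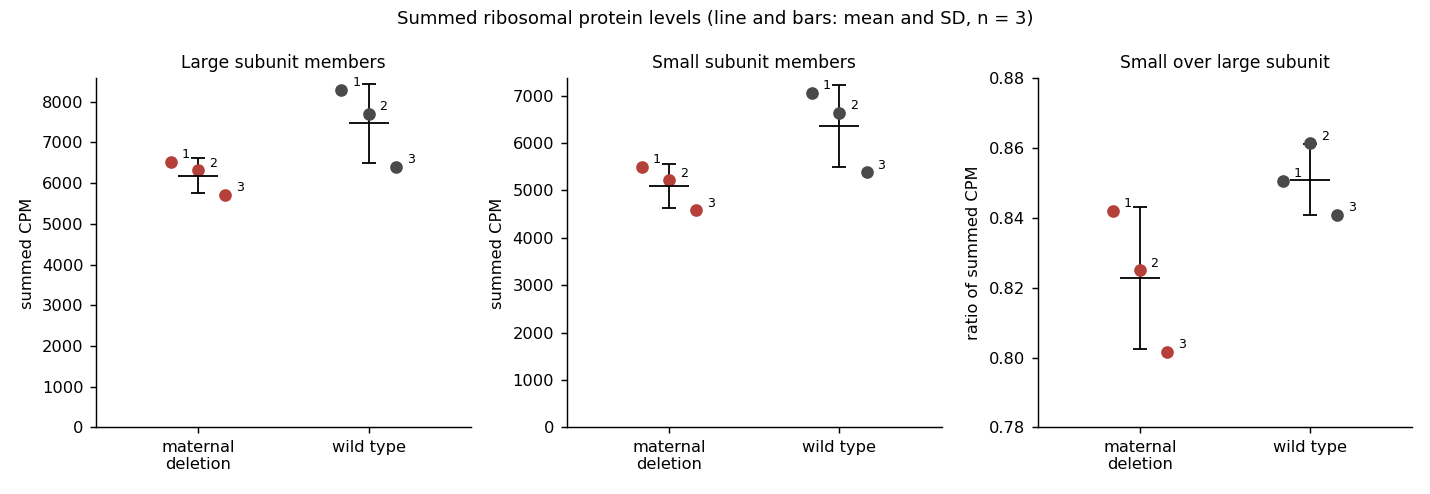
Summed CPM (y axes from 0) of large and small subunit members and the ratio of the small to the large sum (right, axis not from 0) in maternal deletion (left of each panel) and wild type; points are libraries numbered by replicate, lines and bars mean and SD, n = 3. Wild-type replicate 3 lies among the deletion libraries in both sums, and the ratio stays between 0.802 and 0.861.

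The members varied together across libraries, measured as each member's log2 CPM minus its own mean over the 6 libraries. The median deviations of the large subunit were -0.07, -0.09 and -0.24 in deletion replicates 1 to 3 and 0.28, 0.18 and -0.09 in wild-type replicates 1 to 3. Those of the small subunit were -0.06, -0.11 and -0.30 in the deletion libraries and 0.32, 0.23 and -0.08 in wild type. Of the 51 members, 48 lay above their own mean in wild-type replicate 1 and 48 in wild-type replicate 2, but 5 in wild-type replicate 3 and 10, 5 and 2 in deletion replicates 1 to 3. Over all genes tested the median deviation of every library lay between -0.03 and 0.03, which TMM scaling by itself keeps near 0.

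Deletion replicate 3 held the lowest value of 44 members, 21 of 28 in the large and 23 of 23 in the small subunit. Wild-type replicate 1 held the highest value of 38 members, 20 in the large and 18 in the small subunit. Which library was at the end depended on the scaling. Over plain read totals deletion replicate 3 was lowest for 28 members and wild-type replicate 2 highest for 31, while a deletion library was lowest for 50 of the 51 under that scaling. Within a library the small subunit members differed little from each other, with an SD of their deviations from 0.06 to 0.11, against 0.43 to 0.52 for all genes tested. The value for all genes includes genes with few reads, whose counting error widens it. No SD was taken over genes as abundant as the members. The large subunit members, which include 4 of the 5 tested paralogs, had SDs from 0.07 to 0.17.

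**Figure D4:**
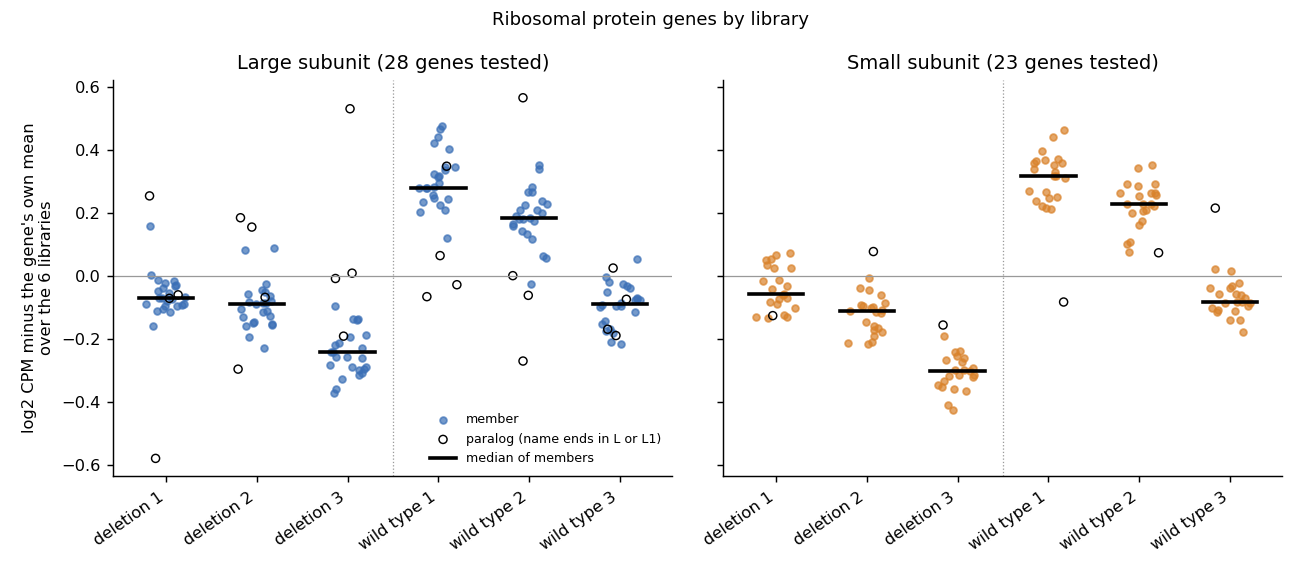
Deviation of each tested member (points; open circles, paralogs) from its own mean over the 6 libraries, in log2 CPM (y axis), for the large (left, 28 genes) and small (right, 23 genes) subunit, with deletion libraries left of wild type; black lines are medians. Wild-type replicates 1 and 2 stand high for nearly all members, and wild-type replicate 3, at medians of -0.09 and -0.08, lies level with deletion replicates 1 and 2.

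On the TMM scale the group difference rested mainly on wild-type replicates 1 and 2. As a share of all exon reads, the members took 1.21% in wild-type replicate 3, against 1.13%, 1.08% and 1.06% in deletion replicates 1 to 3. The differences that follow are on the TMM scale. Against wild-type replicate 3, the members' median log2 difference was 0.03 in deletion replicate 1, with 33 members higher and 18 lower, and -0.02 in deletion replicate 2, with 20 higher and 31 lower. In deletion replicate 3 it was -0.19, with 46 of 51 lower. Within wild type, replicate 1 lay above replicate 3 by a median of 0.37, in 49 of 51 members, and replicate 2 above replicate 3 by 0.28, in 48 of 51. Differences between wild-type animals were thus as large as the one between genotypes.

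Without wild-type replicate 3, the medians were -0.44 for the large and -0.49 for the small subunit, and the edgeR quasi-likelihood test called 0 large and 4 small subunit members lower, against 4.31% of genes called lower in that fit. Those 4 were RPS6, RPS16, RPS28 and RPS3A, with log2 fold changes from -0.58 to -0.54 and Benjamini-Hochberg adjusted p from 0.0352 to 0.0477. RPS28 and RPS3A were chosen after their values were seen. At an unadjusted p under 0.05 that fit took 23 large and 22 small subunit members, all lower, against 13.7% of genes lower at that level. Without wild-type replicate 1 the medians were -0.19 and -0.25 and 0 members were called by edgeR, in a fit that called 0 genes in all. At an unadjusted p under 0.05 it took 0 of the 51 members, against 16.4% of genes in either direction. The animal IDs begin with 14 or 15, whose meaning is not stated. In the 1 pair with 14, deletion minus wild type had a median of -0.35 for the large and -0.37 for the small subunit, and in the 2 against 2 with 15 the medians were -0.30 and -0.36.

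The common profile, the median deviation of the 46 tested members that are not paralogs, ran from -0.29 in deletion replicate 3 to 0.32 in wild-type replicate 1. The SD of a member's departures from it over the 6 libraries had a median of 0.07 among these 46 and was under 0.1 in 41. RPL15 and RPL27, chosen after their values were seen, departed most, with SDs of 0.19 and 0.14. RPL15 stood at 502, 424 and 421 CPM in the deletion libraries and at 489, 442 and 428 CPM in wild type, with a log2 fold change of -0.01 (SE 0.14). RPL27 stood at 151, 165 and 141 CPM in the deletion libraries and at 179, 162 and 138 CPM in wild type, with -0.07 (SE 0.14). The groups overlapped in both genes, and both changed sign without wild-type replicate 1.

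Paralogs are later copies of a canonical gene, some of whose proteins can take the place of the canonical one, and the naming rule takes 6 of them. None followed the common profile closely: among the 5 with reads the SD of the departures ran from 0.24 to 0.48, all above the 0.19 of RPL15. These 5 also had the lowest CPM of the members tested, and the 0.48 came from RPL3L, with 13 to 28 reads per library. Counting error, which is larger at low counts, was not separated from these departures. Together the paralogs took between 87.9 and 104 CPM, so they added little to the sums. RPL22L1, which can replace RPL22, stood at 7.99, 11.4 and 10.5 CPM in the deletion libraries and at 15.2, 17.7 and 11.3 CPM in wild type, with deletion replicate 2 level with wild-type replicate 3. Its log2 fold change, at -0.57 (SE 0.21; edgeR quasi-likelihood, Benjamini-Hochberg adjusted p 0.189), was the lowest of all members, whereas RPL22 itself, at 165, 187 and 161 CPM in the deletion libraries and 204, 192 and 157 CPM in wild type, had -0.11 (SE 0.14).

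RPL26L1 stood at 24.6, 29.3 and 25.7 CPM in the deletion libraries and at 27.0, 25.8 and 23.0 CPM in wild type, with overlap and a log2 fold change of 0.07 (SE 0.13). Its canonical gene RPL26 stood at 154, 155 and 139 CPM in the deletion libraries and at 199, 199 and 148 CPM in wild type, with overlap through wild-type replicate 3 and -0.28 (SE 0.15). RPL7L1, which is placed in the assembly of ribosomes rather than in the finished particle, stood at 32.5, 37.7 and 34.0 CPM in the deletion libraries and at 32.3, 32.4 and 34.4 CPM in wild type, with 0.07 (SE 0.11). RPL7 stood at 336, 328 and 288 CPM in the deletion libraries and at 414, 426 and 353 CPM in wild type, without overlap and with -0.33 (SE 0.14). The signs of RPL26L1 and RPL7L1 turned negative under total-count and upper-quartile scaling.

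RPL3L, known as the form of striated muscle, was near the floor, with 20, 13 and 28 reads in the deletion libraries and 14, 16 and 16 reads in wild type. Its log2 fold change of 0.37 had an SE of 0.36. RPL3 stood at 316, 321 and 295 CPM in the deletion libraries and at 394, 380 and 318 CPM in wild type, with overlap and -0.23 (SE 0.14). RPS27L, a p53 target in human cells, stood at 21.9, 25.2 and 21.5 CPM in the deletion libraries and at 22.6, 25.2 and 27.8 CPM in wild type, with -0.14 (SE 0.13). It was the only small subunit member with its highest value in wild-type replicate 3. RPS27 itself has no row of that name among the members. Ribosomal protein genes have many processed pseudogenes, and no source used here says how reads that fit several copies were counted, so single levels are uncertain.

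Another 12 rows carry a ribosomal protein name but fall outside the rule, because they lack a name in the file, are read-through genes, or end otherwise (RPL36AL and RACK1). All 12 had a negative log2 fold change, with a median of -0.30 and a range from -0.36 to -0.18. The edgeR quasi-likelihood test called 0 of them, with 2 at an unadjusted p under 0.05, against 20.2% of all genes, and DESeq2 and voom also called 0. RACK1, the scaffold protein on the head of the small subunit, stood at 209, 190 and 180 CPM in the deletion libraries and at 265, 280 and 196 CPM in wild type, with overlap and -0.36 (SE 0.16). RPS27A, made as a fusion with ubiquitin, stood at 236, 254 and 219 CPM in the deletion libraries and at 311, 328 and 255 CPM in wild type, without overlap and with -0.33 (SE 0.14). The genes named from these rows were chosen after their values were seen, apart from RPLP1.

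Other parts of the translation apparatus did not share the negative median in the fit of all 6 libraries. The counts for these lists stand beside shares over all genes of 1.02% called by edgeR and 20.2% at its unadjusted p under 0.05. For DESeq2 the share called was 9.5% and for voom 3.01%. Genes of mitochondrial ribosomal proteins, which serve a separate ribosome, had a median log2 fold change of 0.10, with 53 of 68 positive. The edgeR quasi-likelihood test called 0 of the 68, DESeq2 called 1 and voom 0. At an unadjusted p under 0.05 by edgeR stood 8, all higher, against 1618 higher of the 14566 genes tested. MRPL37, a large subunit protein of that ribosome, stood at 40.3, 42.4 and 34.0 CPM in the deletion libraries and at 28.6, 28.3 and 24.6 CPM in wild type, without overlap, or 0.52 on the log2 scale (SE 0.13; edgeR quasi-likelihood, Benjamini-Hochberg adjusted p 0.0919).

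Genes of ribosome biogenesis had a median of 0.10 over 78 tested, 56 of them positive, and 0 were called by edgeR, with 5 at an unadjusted p under 0.05 and 1 call each by DESeq2 and voom. POLR1E, a subunit of RNA polymerase I, which transcribes ribosomal RNA, stood at 28.5, 29.5 and 31.8 CPM in the deletion libraries and at 20.1, 19.0 and 16.1 CPM in wild type, without overlap. The log2 fold change was 0.71 (SE 0.13; edgeR quasi-likelihood, Benjamini-Hochberg adjusted p 0.0543). Initiation factors had a median of 0.08 over 37 tested, 24 of them positive. Of these 37, edgeR called 0, with 1 at an unadjusted p under 0.05, and DESeq2 called 1 and voom 0. EIF3E, a subunit of the initiation complex that binds the small subunit, stood at 70.9, 77.6 and 73.8 CPM in the deletion libraries and at 89.5, 89.0 and 91.2 CPM in wild type, without overlap, with -0.28 (SE 0.10; adjusted p 0.178).

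Elongation factors had a median of 0.06 over 11 tested, 6 of them positive and 5 negative. The edgeR test called 0, with 3 at an unadjusted p under 0.05, all higher, and DESeq2 called 1 and voom 0. EEF1A2, the form of the tRNA-delivering factor found in neurons and muscle, stood at 1169, 2033 and 1006 CPM in the deletion libraries and at 626, 721 and 267 CPM in wild type, without overlap, with 1.38 (SE 0.41; edgeR quasi-likelihood, Benjamini-Hochberg adjusted p 0.124). The summed neuron markers followed the same order of libraries within each genotype. Genes of ribosome rescue and quality control had a median of 0.12 over 26 tested, 17 of them positive. Of these 26, edgeR called 0, with 2 at an unadjusted p under 0.05, and DESeq2 called 1 and voom 0. UBE2O, an E2/E3 ubiquitin enzyme that in red cell precursors removes unassembled ribosomal proteins, stood at 145, 198 and 135 CPM in the deletion libraries and at 91.9, 107 and 72.0 CPM in wild type, without overlap, with 0.82 (SE 0.20; adjusted p 0.0903).

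Genes of mTOR signalling and of the control of ribosomal protein mRNAs had a median of 0.05 over 36 tested, 26 of them positive. The edgeR quasi-likelihood test called 0, with 8 at an unadjusted p under 0.05, 3 by DESeq2 and 2 by voom. Over all genes the last 3 shares were 20.2%, 9.5% and 3.01%. MYC, a transcription factor that drives ribosomal protein genes, stood at 6.54, 5.35 and 6.52 CPM in the deletion libraries and at 17.1, 14.7 and 10.2 CPM in wild type, without overlap, and in wild type it was lowest in replicate 3. Its difference was -1.19 on the log2 scale (SE 0.22; edgeR quasi-likelihood, Benjamini-Hochberg adjusted p 0.0552). DDIT4, an inhibitor of mTOR, stood at 32.5, 38.4 and 33.0 CPM in the deletion libraries and at 50.4, 51.3 and 46.3 CPM in wild type, with -0.51 (SE 0.11; adjusted p 0.0785). LARP1 stood at 178, 195 and 178 CPM in the deletion libraries and at 123, 140 and 135 CPM in wild type, with 0.47 (SE 0.11; adjusted p 0.0887). In both genes the groups did not overlap.

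Without wild-type replicate 3, the rows outside the rule had a median log2 fold change of -0.47. The medians were then 0.01 for mitochondrial ribosomal proteins, 0.05 for ribosome biogenesis, 0.06 for initiation factors, 0.10 for elongation factors and 0.05 for rescue and quality control. That of mTOR signalling and ribosomal protein mRNA control turned to -0.06, with 2 of 36 genes called lower by the edgeR test, and 1 of 78 biogenesis genes was called higher. That fit called 759 of 14834 genes in either direction, and 4.31% lower. Over all genes tested the median was 0.02. At an unadjusted p under 0.05 by edgeR, the fit without wild-type replicate 3 took 4 of 11 elongation factors. Of those, 3 were lower, against 13.7% of genes lower at that level.

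**Figure D5:**
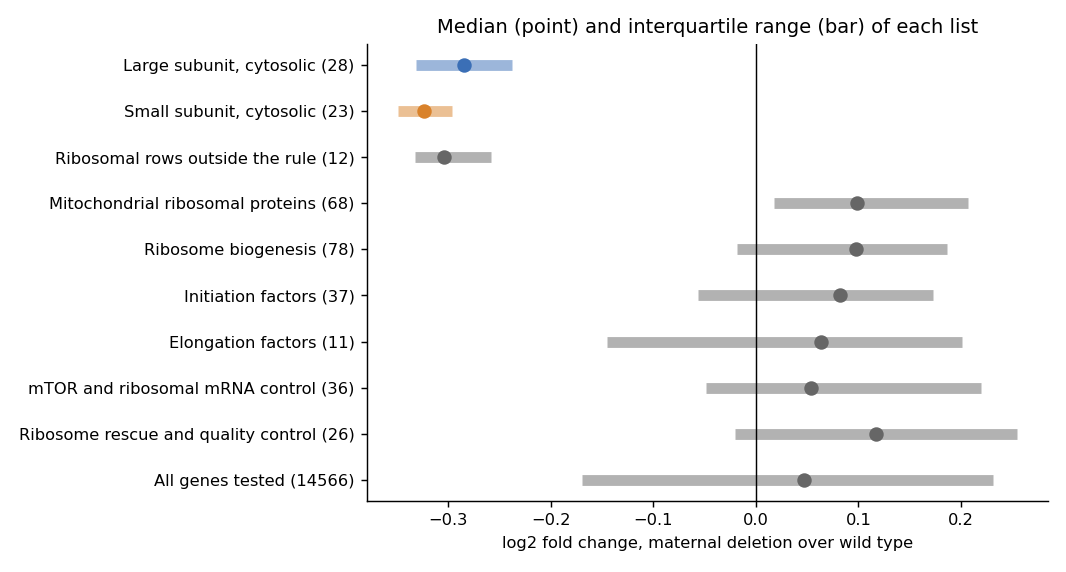
Median (point) and interquartile range (bar) of the log2 fold changes, maternal deletion over wild type (x axis), for each list, with the number of genes tested in parentheses. In the fit of all 6 libraries the cytosolic ribosomal protein lists lie between -0.35 and -0.24, and the other lists have medians between 0.05 and 0.12.

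Ribosomal protein genes are more abundant and shorter than most others. The most abundant and the shortest 20% of all genes tested, members included, were therefore set beside them. These groups are wide, with a mean log2 CPM from 5.95 to 16.16 and summed exons, computed from RPKM as above, from 85 to 2795 bases. The most abundant 20% of genes tested had a median log2 fold change of 0.12, and the 46 members in it one of -0.31. The 20% with the shortest summed exons had a median of 0.02, and the 34 members in it one of -0.30.

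Markers of several cell types also differed between the groups. Over all genes tested, edgeR called 0.844% lower. Summed markers of meninges and fibroblasts ranged from 447 to 751 CPM in the deletion libraries and from 2566 to 3316 CPM in wild type, and 6 of their 10 tested genes passed the edgeR test, all lower. Those of endothelium and mural cells ranged from 419 to 573 CPM in the deletion libraries and from 814 to 3128 CPM in wild type, with 3 of 12 called lower. Those of Schwann cells ranged from 275 to 455 CPM in the deletion libraries and from 897 to 4737 CPM in wild type, with 1 of 8 called lower. In the last 2 lists wild-type replicate 3 had the lowest wild-type sum, at 814 and 897 CPM, and it also did in the meningeal list, at 2566 CPM.

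Summed neuron markers ranged from 9628 to 19618 CPM in the deletion libraries and from 2773 to 6738 CPM in wild type, with 0 of 15 called by edgeR, 13 at an unadjusted p under 0.05, 9 by DESeq2 and 1 by voom. Over all genes edgeR called 1.02% and took 20.2% at an unadjusted p under 0.05, DESeq2 called 9.5% and voom 3.01%. Oligodendrocyte markers ranged from 92606 to 137081 CPM in the deletion libraries and from 79937 to 139517 CPM in wild type, and astrocyte markers from 21283 to 27117 CPM against 21567 to 25695 CPM, with 0 of 12 and 0 of 10 called by edgeR. At an unadjusted p under 0.05 these 2 lists had 0 and 3 genes, DESeq2 called 0 and 2, and voom 0 and 0. Microglia and macrophage markers ranged from 743 to 807 CPM in the deletion libraries and from 813 to 848 CPM in wild type, with 1 of 12 called lower. Blood markers ranged from 91.9 to 206 CPM in the deletion libraries and from 139 to 307 CPM in wild type, with 0 of 7 called by edgeR, 2 at an unadjusted p under 0.05, 1 by DESeq2 and 0 by voom. No marker was at 0 in every library, and AHSP and CD3E were at 0 in some. Without wild-type replicate 3 the edgeR test called 7 of 10 meningeal, 8 of 12 endothelial and mural, 4 of 8 Schwann cell and 3 of 12 microglia and macrophage markers lower, and 1 of 15 neuron markers higher. In that fit 4.31% of genes were called lower, and 759 of 14834 in either direction. The part of these cell types in the ribosomal protein levels was not tested.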

How the data were processed

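Cervical spinal cord of 6 pigs was profiled by stranded poly(A) RNA sequencing, per the labels' protocols. The authors deposited, per the file headers, whole-number counts of exon reads, with RPKM and TPM, and, for the series, a table with a signed fold change as a score, a false discovery rate and a p-value. No source used here names the aligner, counting program, strand setting or genome build, so reads of antisense partners cannot be told apart and no coordinates are printed.

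Counts were filtered by filterByExpr, scaled by TMM and tested over all genes with edgeR 4.0.16 (R 4.3.3), quasi-likelihood with robust settings and Benjamini-Hochberg adjustment at 0.05. DESeq2 1.42.0, limma 3.58.1 voom, other scalings, no filter, the ID prefix as a block or alone, and leaving out each library were alternatives. RPKM served only for exon lengths, whose absolute scale is uncertain. In data simulated for this comparison over 14417 genes, edgeR called 38 of the 100 changed 2-fold and 95 of the 100 changed 4-fold, with 11 false calls. No 2 libraries came within sampling noise (smallest chi-square per degree of freedom 29.7 over 15 pairs).

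The members and all lists were chosen with earlier results of these data known. Named genes are UBE3A, the 4 members of each subunit with the smallest p, the 2 most and 2 least abundant per length, those with the largest and smallest fold change, RPSA and the stalk genes, paralogs with their canonical genes, and up to 4 genes by p of each list. A few genes taken by this rule, for the lists and among the members, are not reported here by name and stand only in the counts.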

Additional observations from a re-analysis of the deposited data

How the results depend on the processing

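The median log2 fold change stayed negative in both subunits under every alternative run. Leaving out single libraries gave -0.44 to -0.19 for the large and -0.49 to -0.25 for the small subunit, with -0.44 in the large subunit coming without wild-type replicate 3. Without the paralogs, an alternative chosen after seeing the data, they were -0.29 and -0.32. The number of large subunit members called was 1 with DESeq2 and 0 in every other setting. For the small subunit it was 1 with DESeq2, and leaving out single libraries gave 0 to 4, the 4 coming without wild-type replicate 3. Deletion replicate 3 held the lowest value of 44 members, and of 28 under total-count scaling. All genes called numbered 149, against 1355 with DESeq2, 438 with voom, 237 with no filter, 3 with the ID prefix as a block, 0 in ID prefix 15 alone, and 0 to 759 leaving out single libraries, where the counts were 6, 0 and 0 on leaving out deletion replicates 1, 2 and 3, and 0, 9 and 759 for those of wild type. UBE3A gave -1.44 in ID prefix 15 alone (edgeR quasi-likelihood, Benjamini-Hochberg adjusted p 0.358), -1.39 with the prefix as a block (adjusted p 0.0526), and -1.51 to -1.33 leaving out single libraries. Its call was lost without deletion replicate 1, 2 or 3 (adjusted p 0.0728, 0.0886 and 0.0822) or wild-type replicate 1 (0.152). The sign turned for RPL26L1 under total-count (-0.023) and upper-quartile scaling (-0.0091), and leaving out single libraries gave -0.055 to 0.12. It turned for RPL7L1 under total-count (-0.023) and upper-quartile scaling (-0.0085), and for RPL15 with no filter (0.0018). Leaving out single libraries gave -0.11 to 0.045 for RPL15 and -0.22 to 0.024 for RPL27, each highest without wild-type replicate 1. The overlap counts and list medians without wild-type replicate 3 were chosen after seeing the data, and there the median of the mTOR list turned to -0.06. The cause was not tested. No paired analysis was possible because the labels give no replicate numbers, which here follow accession order and pair no animals; the ID prefix was the only block that could be fitted. With 3 animals per group the exact permutation test of a single value cannot go below 0.1, and the members' SEs of 0.11 to 0.36 set the size of change that could be called.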
